A study of Mus musculus with 19 samples.

Results

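The ovary of the mouse at postnatal day (pnd) 2 was set beside the whole newborn animal, to show which genes stood higher or lower in this organ than in the body as a whole. The comparison used 4 of the 19 arrays of a series on ovary development, namely 3 arrays of pnd2 ovary and the single array of whole animals at pnd 0.5. It covered 13217 of the 18193 genes that have a probe set of their own, including those low in the ovary. All mice were wild-type CD-1, an outbred stock. Each pnd2 sample was excised whole ovary of a female and is labelled as not pooled, and the text of the series describes it as the pair of ovaries of 1 animal from a dam of its own. The reference was RNA from a pool of 8 whole animals, 4 male and 4 female, which another laboratory supplied as a common standard and which the labels also call embryos. Total RNA of both kinds went through 2 rounds of amplification and was hybridized to Affymetrix Mouse430_2 arrays.

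The reference thus differed from the ovaries in tissue, in age, in sex and in being a pool, and these cannot be told apart for a gene. It had 1 array, so no test was made and no p-value is given. A gene was called higher or lower when the mean of its 3 differences from the reference was at least 1 on the log2(signal + 31) scale, which is 2-fold, and all 3 pnd2 arrays lay on that side of the reference. This scale understates changes of genes with low signal. Errors after ± are SDs of the 3 pnd2 arrays (n = 3) and hold none of the spread of the reference. A signal at or under 118.5, the median of all values on the 4 arrays, was taken as too low to measure, since the deposited table holds no detection calls. A gene passed this filter when the mean of the pnd2 arrays or the reference lay above it. A difference with such a low side is also given as a bound, the mean of the bright side over 118.5. In bulk tissue, fewer cells of a type and less RNA per cell cannot be told apart.

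Around birth the mouse ovary turns from nests of germ cells into follicles. Germ cells enter meiosis in the fetus, pass through its prophase and come to rest as oocytes, each of which is then enclosed by flattened pregranulosa cells to make a primordial follicle. The oocyte starts to build the zona pellucida, its glycoprotein coat, and to store the products on which the early embryo will run. Steroid-making theca cells are formed later, as follicles grow. A whole newborn holds all of this only as a tiny share of its RNA, beside liver, muscle, skin, nerve, gut and bone.

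Of the 13217 genes, 2431 (18.4%) were higher in pnd2 ovary and 2920 (22.1%) were lower, so 40.5% were called. The counts of every list below are to be read beside these shares. Without the 2-fold condition, all 3 ovary arrays lay above the reference in 44.8% of genes and below it in 40.9%. The median difference over all of them was 0.06, and the median SD of a gene's 3 differences was 0.21. Scaling the arrays to a common median moved the median difference to 0.19. Large differences were more often downward. At least 4-fold differences were held by 656 of the higher and 1553 of the lower genes, at least 8-fold by 223 and 787, and at least 32-fold by 49 and 238. In 723 of the higher genes the reference was at or under 118.5, and in 1588 of the lower genes all 3 pnd2 arrays were. Among the 9698 genes above 118.5 on all 4 arrays, more were higher (1708) than lower (972). Over all probe sets the 3 pnd2 arrays correlated with each other at 0.969 to 0.977 and with the reference at 0.818 to 0.836. For the Gapdh control, signal at the 3' end divided by that at the 5' end, a ratio that grows as RNA or its copies shorten, was 5.07 to 5.41 on the pnd2 arrays and 3.00 on the reference. For the beta-actin control it was 2.08 to 3.36 against 1.80. This gap in transcript integrity moved with the comparison throughout, and its part in the differences was not tested.

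**Figure D1:**
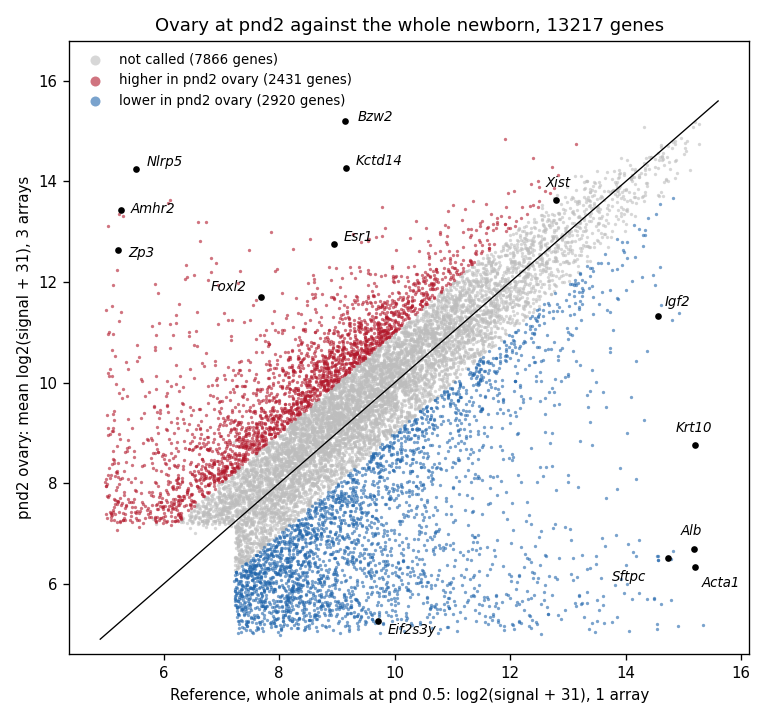
Each point is 1 of 13217 genes, with the reference array on the horizontal axis and the mean of the 3 pnd2 arrays on the vertical axis, both as log2(signal + 31); the line marks equal values. Red points are the 2431 genes called higher and blue points the 2920 called lower; black points are named genes, from Nlrp5 and Amhr2 at the upper left to Alb and Acta1 at the lower right.

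Sequences just before the annotated start of transcription are shown for genes from both ends of this range. The start that these tissues use was not checked, and distances count from the annotated one. Each is the 250 bases before the annotated start, 5' to 3' on the strand of the gene, from RefSeq on build GRCm38.p6. The first pair belongs to oocyte genes, Zp3 for a zona protein (chr5:135979855-135980104, plus strand) and Padi6 for a protein of the oocyte's cytoplasmic lattices (chr4:140742644-140742893, minus strand). The third belongs to Acta1, for the actin of skeletal muscle (chr8:123894776-123895025, minus strand). Capitals in these 3 mark the E-box CANNTG, the core bound by basic helix-loop-helix factors, among them FIGLA in oocytes and MyoD in muscle.
Zp3: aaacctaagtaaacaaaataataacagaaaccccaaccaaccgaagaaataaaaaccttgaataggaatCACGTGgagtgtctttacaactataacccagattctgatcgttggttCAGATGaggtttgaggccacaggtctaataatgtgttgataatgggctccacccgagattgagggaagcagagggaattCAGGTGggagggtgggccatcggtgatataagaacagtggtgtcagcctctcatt
Padi6: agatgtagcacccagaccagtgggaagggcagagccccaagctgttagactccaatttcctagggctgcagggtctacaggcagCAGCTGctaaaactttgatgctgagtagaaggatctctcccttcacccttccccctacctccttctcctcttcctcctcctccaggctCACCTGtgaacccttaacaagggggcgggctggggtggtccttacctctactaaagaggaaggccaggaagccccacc
Acta1: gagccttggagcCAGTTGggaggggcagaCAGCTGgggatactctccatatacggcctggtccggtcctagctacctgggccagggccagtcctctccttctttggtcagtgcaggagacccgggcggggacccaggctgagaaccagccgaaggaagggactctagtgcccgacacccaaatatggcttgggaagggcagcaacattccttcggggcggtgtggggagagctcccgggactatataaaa
The last pair belongs to the liver genes Alb, for albumin (chr5:90460620-90460869, plus strand), and Afp, for alpha-fetoprotein (chr5:90490464-90490713, plus strand). Capitals here mark GTTAAT, part of the site of the liver factor HNF1.
Alb: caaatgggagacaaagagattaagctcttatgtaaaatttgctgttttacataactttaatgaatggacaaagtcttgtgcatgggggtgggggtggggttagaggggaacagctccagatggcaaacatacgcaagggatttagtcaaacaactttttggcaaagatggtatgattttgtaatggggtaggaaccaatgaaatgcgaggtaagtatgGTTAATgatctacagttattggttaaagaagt
Afp: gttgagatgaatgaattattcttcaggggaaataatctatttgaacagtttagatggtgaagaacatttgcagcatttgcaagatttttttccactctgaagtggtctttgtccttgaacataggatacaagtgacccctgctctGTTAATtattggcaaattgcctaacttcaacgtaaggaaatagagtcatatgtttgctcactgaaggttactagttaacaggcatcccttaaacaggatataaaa

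Zp3 held 3 E-boxes, beginning 181, 134 and 55 bases before the annotated start, and Padi6 and Acta1 held 2 each. The liver windows also held E-boxes, which are not in capitals there, 2 in Alb and 4 in Afp. GTTAAT began 32 bases before the annotated start of Alb and 105 bases before that of Afp. The motifs were searched on both strands in all 32851 RefSeq windows of this length, where several windows can belong to 1 gene. An E-box was in 66.2% of all windows. It was in 42 of 49 windows (85.7%) of the oocyte lists below, in 45 of 63 (71.4%) of the germ cell and meiosis lists, and in 17 of 18 (94.4%) of skeletal muscle genes. In granulosa cell genes it was in 13 of 22 (59.1%) and in liver genes in 14 of 23 (60.9%). GTTAAT was in 6.43% of all windows and in 9 of 23 (39.1%) of the liver genes, against 0 of 49 of the oocyte lists and 0 of 18 of muscle. TAATTG, the element known for the oocyte factor NOBOX, was in 7.17% of all windows and in 4 of 49 (8.16%) of the oocyte lists. It was in 4 of 22 (18.2%) of granulosa cell genes, 4 of 23 (17.4%) of liver genes, 2 of 63 (3.17%) of the germ cell and meiosis lists and 0 of 18 of muscle. These are matches of letters and show no binding.

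Genes that oocytes use to build follicles and to provision the egg had the highest list medians. All 3 zona pellucida genes were higher at pnd2, as were the 14 maternal-effect and Nlrp genes and the 15 oocyte transcription factors and follicle signals that passed the filter. The median differences were 6.61, 5.11 and 3.90, beside 0.06 over all genes. The lists held 3, 22 and 22 genes, of which 3, 19 and 18 had a probe set of a single gene. All 3 zona genes, 11 of the 14 and 11 of the 15 passed through the ovary arrays alone and so could lie only above the reference.

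Zp3 codes for a protein of the zona. Its signal was 9389, 5042 and 5275 on the 3 pnd2 arrays and 5.94 on the reference, a difference of 7.42 ± 0.50 and at least 55.4-fold. The first ovary stood above the other two, and the reference lay far below all of them. Zp2, for a further zona protein, gave 11298, 9131 and 7939 against 65.1, at least 79.8-fold higher. Zp1, whose product links the zona filaments, gave 3280.3, 2337 and 968 against 40.4, with the third ovary well under the others and a spread of 0.89 around 4.80.

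Nlrp5, known as Mater and needed for the embryo to pass the first cleavages, had the largest positive difference of any gene. It read 20627, 20367 and 17103 against 15.1, at least 163-fold higher (8.71 ± 0.15). Padi6 read 13106, 10044 and 7771 against 8.23, at least 87.0-fold, and the 3 ovaries were in the order of their Zp2 signals. Other genes of the same maternal complex were high on all 3 arrays: Ooep at 5175, 3544 and 3574 against 125, Tle6 at 5249, 3191 and 3574 against 91.9 and Khdc3 at 2123, 1975 and 1158 against 15.5. The Nlrp relatives Nlrp14 and Nlrp4f were at least 75.2-fold and 88.6-fold higher, while Nlrp4a reached at least 2.13-fold at 358, 213 and 187 against 14.2. Zar1, an oocyte RNA-binding protein, was at 1195, 1551 and 800.4 against 126. Nlrp4e, Nlrp9a, Nlrp9b, Nlrp9c and Zfp57 did not pass the filter.

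The transcription factors that switch on oocyte genes followed. Figla, whose product binds E-boxes, gave 1948, 1614 and 2281 against 55.7, at least 16.4-fold. Nobox, a homeobox factor of primordial follicles, gave 1617, 1493 and 720.4 against 10.6, at least 10.8-fold, and the third ovary was lowest. Lhx8, which acts with them, was measured on both sides at 6258, 5464 and 7359 against 147, a 43.1-fold ratio of signals. Sohlh1 and Sohlh2, which act before them, were at least 20.2-fold and 10.8-fold higher. Kit, the receptor through which granulosa cells signal to the oocyte, read 4578, 4031 and 4789 against 355. Gdf9, a growth factor that oocytes send to granulosa cells, read 4847, 3229 and 2050.2 against 162 (4.06 ± 0.61). It was highest in the first ovary and lowest in the third, as were Padi6 and Zp1. Bmp15, its close relative, did not pass the filter, at 147, 123 and 66.4 against 12.4, and neither did H1f8 or Obox5.

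Beside the gd18 ovary, the zona and maternal genes stood further from the newborn at pnd2. Gestational day (gd) 18 is the stage just before birth, with 3 ovary arrays. The gd18 values share the same reference array, so they are set side by side without a test. Genes entered by their pnd2 mean or the reference, not by gd18. Members above the filter at gd18 alone are therefore missing from every median of an earlier stage, here and below. The median of the zona list was 1.97 at gd18 and 6.61 at pnd2, and that of the maternal list 2.06 and 5.11. Gdf9 was 0.60 at gd18 and 4.06 at pnd2, Zp3 1.97 and 7.42, and Ooep 0.71 and 4.71. The median of the list of factors and signals was 2.65 at gd18 and 3.90 at pnd2. For some of its transcription factors both ages lay closer together: Figla was 4.25 and 4.50, Lhx8 4.84 and 5.15, and Nobox 4.09 and 4.89. Its member Tcl1 was 3.58 and 5.27. At gd11, before oocytes exist, the medians of the 3 lists were 0.06 for factors and signals, -0.16 for the zona and 0.31 for maternal genes.

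**Figure D2:**
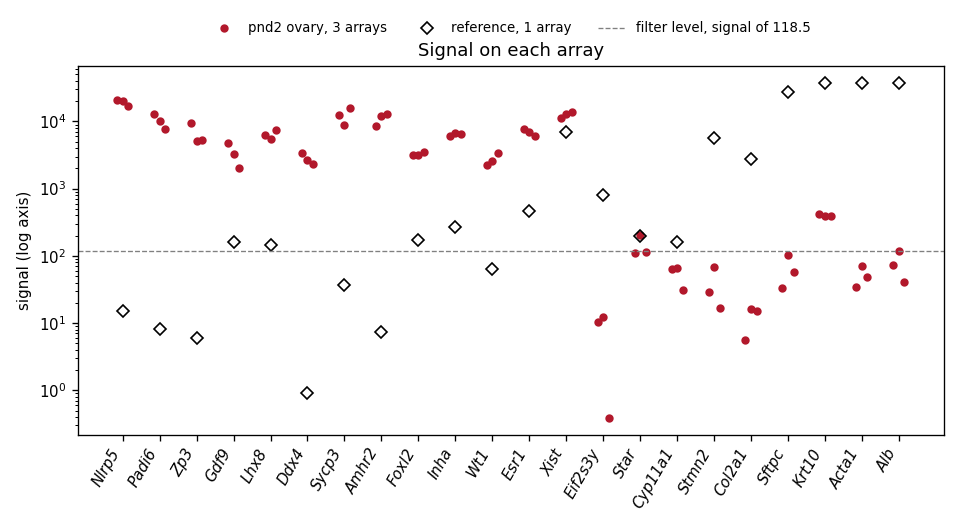
Signal on a log axis for 22 named genes, with the 3 pnd2 arrays as red points and the reference array as an open diamond; the dashed line is the limit of 118.5. From Nlrp5 to Xist all red points lie above the diamond, at Star they lie on both sides of it, and at Eif2s3y and from Cyp11a1 to Alb they lie below it.

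Germ cell identity genes and the piRNA pathway, which silences transposons in germ cells, were also far above the newborn, but not further above it at pnd2 than at gd18 by their median. Of 27 genes listed, 23 had a probe set and 21 passed, of which 19 were higher, 0 were lower and 17 passed through the ovary alone. The median was 3.86 at pnd2 and 4.76 at gd18. Ddx4, the RNA helicase also called Vasa, read 3403, 2658 and 2357 against 0.90, at least 23.7-fold higher. Dazl, an RNA-binding protein of germ cells, read 3360.4, 2316 and 3112 against 3.23, at least 24.7-fold. All 3 ovaries lay far above the reference for both, and the differences of 6.46 and 6.42 compare with 7.10 and 7.19 at gd18.

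In the piRNA pathway, Mael stood at 4208, 3528 and 3959 against 3.81 and Gtsf1 at 12718, 11866 and 13225 against 37.8, at least 32.9-fold and 106-fold higher. Piwil2, one of the Piwi proteins that carry piRNAs, was measured on both sides at 5306, 5211 and 3869.9 against 128. Its relatives Piwil1 and Piwil4 were at least 1.52-fold and 1.66-fold higher. Taf7l gave 116, 180.3 and 354 against 14.8, and its difference was 2.32 at pnd2 beside 6.86 at gd18. Rhox13 likewise was 2.36 beside 5.69. Ddx25 (0.27 ± 0.30) and Tdrd7 (0.28 ± 0.05) were not called.

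Genes of meiotic prophase, whose products build the synaptonemal complex and exchange DNA between homologous chromosomes, were higher in 20 of the 21 that passed. The list held 37 genes, 32 with a probe set, and 17 of the 21 passed through the ovary alone. The median was 4.06 at gd18 and 2.94 at pnd2, both over members that passed by pnd2 or the reference. Sycp3, of the lateral elements of the complex, gave 12565, 8735 and 15993 against 36.6, at least 105-fold higher, with 7.48 at pnd2 and 7.52 at gd18. Sycp1, of its transverse filaments, gave 712, 902 and 1001 against 22.9, with 4.05 beside 6.11. The order of the 3 ovaries for Sycp3, lowest in the second, was not that for Sycp1, lowest in the first.

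Sycp2, Syce3, Hormad1 and Stag3, all of the chromosome axis or the complex, stood closer to the newborn at pnd2 than at gd18, at 2.93 beside 5.21, 3.31 beside 5.28, 2.94 beside 4.68 and 2.55 beside 4.06. The cohesin Smc1b was at 5.85 beside 5.93, and Tex15 at 5.67 beside 6.30. Mnd1, a factor of strand exchange, gave 270.0, 375 and 464 against 28.5, with 2.72 at pnd2 beside 1.33 at gd18. Psmc3ip, the partner of Mnd1, was the member not called, at 0.47 ± 0.21. Of the members with a probe set, 11 did not pass the filter, among them Dmc1, Mei1, Mei4 and Msh5.

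**Figure D3:**
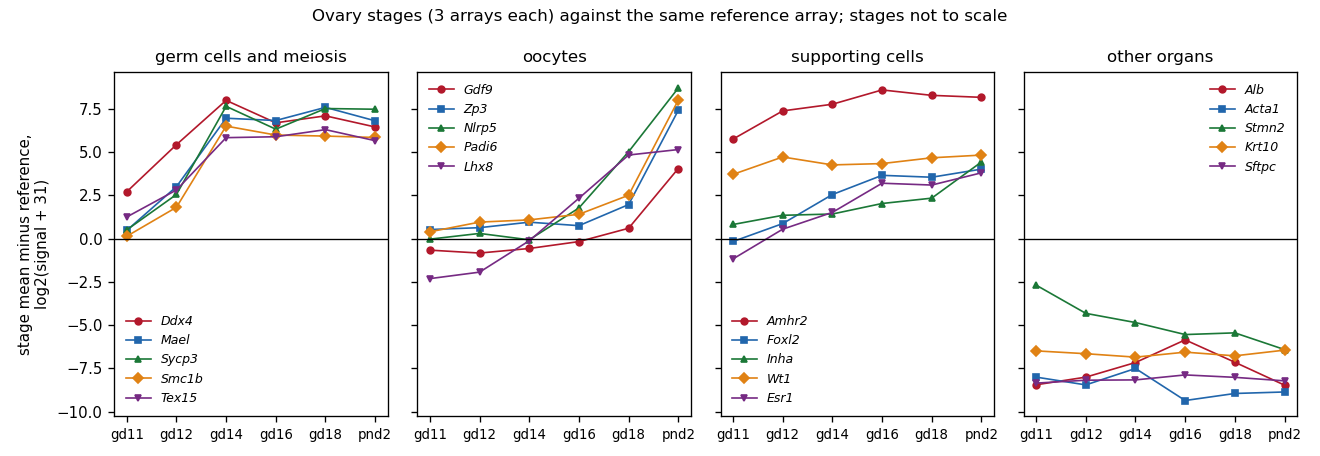
Mean of the 3 arrays of each ovary stage minus the same single reference array, on the log2(signal + 31) scale, for 5 genes of each of 4 groups; stages are evenly spaced and not to scale. Germ cell genes are at their level by gd14, Gdf9, Zp3, Nlrp5 and Padi6 are highest at pnd2, and the genes of other organs lie below 0 at all 6 stages.

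Pregranulosa and granulosa cells, the somatic partners of the oocyte, were represented by 23 listed genes, 22 with a probe set. Of the 20 that passed, 17 were higher and 1 was lower, with a median of 1.74 beside 1.61 at gd18, and 6 passed through the ovary alone. Amhr2, the receptor of anti-Mullerian hormone, stood far above the rest of the list. It gave 8492, 12159 and 12931 against 7.28, at least 94.4-fold higher, and all 3 of its tested probe sets were at least 5.32 above the reference. The hormone itself, Amh, was under the limit on all 4 arrays, at 3.93, 14.6 and 3.16 in the ovaries and 8.59 in the reference.

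Foxl2, the forkhead factor that keeps granulosa cells female, read 3113, 3219 and 3568 against 174, a ratio of 19.0, and the 3 ovaries were close (4.02 ± 0.10). Inha, the inhibin alpha subunit, read 6174, 6667 and 6580.3 against 270.2, with 4.43 at pnd2 beside 2.34 at gd18. Its partner subunit Inhbb was at 1.28 ± 0.20 and lost its call, at 0.76, when the probe sets of a gene were averaged. Inhba, for the other beta subunit, was not called at -0.79. Fst, the activin binder follistatin, read 3277, 2989 and 3480.3 against 1157.

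Kitl, the ligand of Kit, read 5929, 4893 and 6336 against 1951, a ratio of 2.93. Its 3 tested probe sets ranged from 0.53 to 1.53, and their mean of 0.97 was under the 2-fold line. Rspo1, which with Wnt4 sets the female course, read 384, 565 and 516 against 86.5, at least 4.12-fold. Wnt4 itself was not called, at 1072, 1163 and 1442 against 873 (0.46 ± 0.22), although all 3 ovaries lay above the reference. Its other tested probe set was at -0.10. Bmp2 was the member called lower, at 251, 201 and 599 against 892, with the third ovary well above the others and 0.66 at gd18. The nuclear receptor Nr5a2 was 1.95 at pnd2 beside 0.19 at gd18. Fshr, the receptor of follicle-stimulating hormone, was under the limit on both sides.

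Factors of the gonad and of the coelomic epithelium that covers it were called in both directions. Of 20 listed, 18 had a probe set and passed. Of these, 9 were higher and 6 lower, beside 18.4% and 22.1% of all genes, and the median was 1.09. The ovary alone brought 5 of them past the filter and the reference alone 3. Wt1, which the gonad needs to form, gave 2241, 2576 and 3378 against 64.6, at least 23.0-fold. Nr5a1, also called SF-1, gave 662, 753 and 697 against 26.1, and Gata4 gave 515, 605 and 662 against 107, at least 5.94-fold and 5.01-fold. The 3 ovaries lay close together for Nr5a1 and Gata4, with SDs of 0.09 and 0.17, and further apart for Wt1, with 0.30.

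Emx2, Lhx9 and Tcf21, further factors of the early gonad, stood at 3.09, 3.55 and 2.74, beside 3.31, 4.00 and 2.81 at gd18. Of the surface markers, Upk3b was higher at 1588, 1682 and 1396 against 267 and Muc16 at 224, 337 and 291 against 49.9. The epithelial keratins Krt8 and Krt19 were lower, at 1318, 2084 and 1614 against 5591 and 499, 1256 and 585 against 2068. Upk1b and Msln, and the transcription factors Lhx2 (-2.45) and Six4 (-1.16), were the other members called lower. The tested probe sets of Upk1b reached up to -0.57 and those of Six4 up to -0.97. Epithelia of other organs also make several of these.

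Of the enzymes of steroid synthesis, 2 were higher and 2 lower of the 8 that passed, beside 18.4% and 22.1% of all genes, from 16 listed and 10 with a probe set, and a median of -0.42; 1 passed through the ovary alone and 2 through the reference alone. Star, which carries cholesterol into mitochondria, read 110.3, 201 and 113 against 195, and the ovaries lay on both sides of the newborn. Cyp11a1, which makes the first steroid, was lower at 64.2, 66.1 and 30.6 against 159, all 3 ovaries being under the limit. Its call ended with a pseudocount of 100 (-0.76) and without the third ovary (-0.98). Hsd3b1, which acts next, was higher at 919.7, 912 and 2292 against 263, with the third ovary far above the others. Cyp17a1, of androgen synthesis, was under the limit at 67.8, 54.2 and 19.4 in the ovaries and 113 in the reference.

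Among 10 listed receptors for gonadotropins and steroids, 7 had a probe set and 5 passed, of which 3 were higher and 0 lower (median 1.51), and 2 passed through the ovary alone and 1 through the reference alone. Esr1, the estrogen receptor alpha, stood out at 7657, 6966 and 6004 against 460.4, a ratio of 14.9, and was 3.81 at pnd2 beside 3.10 at gd18. Esr2, the estrogen receptor of granulosa cells, was above the limit by its mean, with the third ovary under it, at 130.0, 149 and 94.0 against 2.8, and Pgr, the progesterone receptor, at 222, 214 and 276 against 63.0. The glucocorticoid receptor Nr3c1 was not called (-0.57). The counts of this list and of the next stand beside 18.4% higher and 22.1% lower over all genes. In the list of stroma and hedgehog targets, 3 of the 9 that passed were higher and 1 was lower, from 12 listed and 10 with a probe set (median 0.97), and 1 passed through the reference alone. The higher ones were Tcf21 (2.74), Nr2f2 (1.47) and Gli2 (1.16). Gli2 lost its call, at 0.78, when the probe sets of a gene were averaged. Hhip, which binds hedgehog ligands, was the lower one at 31.7, 10.2 and 4.32 against 389.9, while Ptch1, their receptor and target, was at 0.17 ± 0.04.

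**Figure D4:**
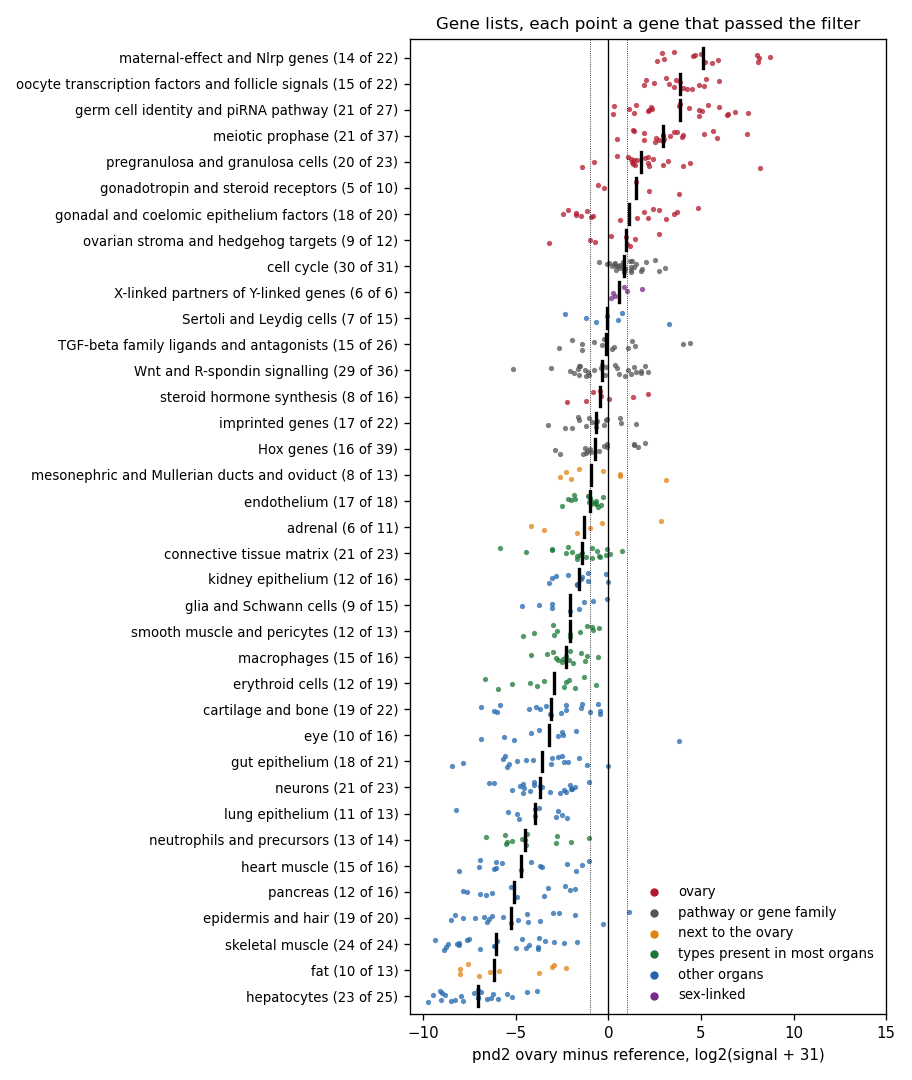
Each point is a gene that passed the filter, placed by its pnd2 minus reference difference on the log2(signal + 31) scale; black bars are list medians, dotted lines mark 2-fold, and the numbers give members passed of members listed, for lists with at least 5 passed. Medians run from 5.11 for maternal-effect and Nlrp genes to -7.06 for hepatocyte genes.

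Signalling families and the Hox genes are read beside the 18.4% of all genes that were higher and the 22.1% that were lower. Of 29 Wnt and R-spondin pathway genes that passed (36 listed, all with a probe set), 8 were higher and 12 lower, with a median of -0.35, and 3 passed through the ovary alone and 9 through the reference alone. Wnt6 was higher at 624, 724 and 1205 against 187, and so were the pathway's targets and brakes Nkd1 (1.74) and Sfrp1 (1.78), whose lowest probe sets were at 0.45 and 0.74. Wif1, a secreted Wnt inhibitor, was furthest below at 21.1, 30.3 and 2.00 against 1609, at least 13.6-fold lower, followed by Wnt2 at 53.2, 21.9 and 8.86 against 452. Of 15 TGF-beta family genes that passed (26 listed, 24 with a probe set), 5 were higher and 4 lower, with a median of -0.11 that was 0.01 after median scaling, and 2 passed through the reference alone. The higher ones were the ovarian members Gdf9, Inha, Fst and Inhbb, with Bmp6 at 1.06. Bmp5 was lowest at 441, 465 and 157 against 2175.

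Hox genes, which mark position along the body axis, were few above the limit: 16 of 39 listed and 33 with a probe set, with 4 higher, 6 lower and a median of -0.73. Of these, 2 passed through the ovary alone and 6 through the reference alone. The higher ones were Hoxd9, Hoxc5, Hoxd10 and Hoxc8. Hoxd9 read 1268, 1628 and 999.7 against 305 and Hoxc8 1142, 1248 and 1184 against 437. Hoxb5 read 11.3, 36.8 and 12.5 against 338 and Hoxa10, which patterns the uterus, 29.8, 45.9 and 40.4 against 391. Both were under the limit in all 3 ovaries and above it in the newborn.

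Cell cycle genes were higher in 13 of 30 that passed and lower in 0, with a median of 0.85 beside 0.44 at gd18. Over all genes, 18.4% were higher and 22.1% lower. The list held 31 genes, 30 with a probe set, and 2 passed through the ovary alone. The mitotic genes led. Cenpe, a kinetochore motor, gave 1184, 959 and 1481 against 115, Bub1, a checkpoint kinase, 3084, 2032 and 3022 against 367, and Ube2c, which marks cyclins for destruction, 2566, 1992 and 2439 against 382. Ube2c was 2.51 at pnd2 beside 0.08 at gd18, whereas Bub1 was 2.76 beside 2.78, with its other tested probe set at 0.77 at pnd2. Genes of DNA replication were close to the newborn: Mcm2 to Mcm7 lay between -0.10 and 0.82, Pcna at 0.39, and Mki67, the common proliferation marker, at 5048, 5088 and 5118 against 4174. Oocytes also hold several mitotic transcripts.

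Imprinted genes, which are expressed from 1 parental copy and many of which set fetal growth, were lower in 7 and higher in 1 of 17 that passed (22 listed, 21 with a probe set; median -0.69 beside -0.14 at gd18), and 3 passed through the reference alone. Over all genes, 22.1% were lower and 18.4% higher. Igf2, a fetal growth factor, was lower at 2464, 3011 and 2172 against 24152, with -3.24 ± 0.23 at pnd2 beside -1.60 at gd18. Its other tested probe set was at -1.55 at pnd2. Cdkn1c, a cell cycle inhibitor, was at 2078, 3086 and 2976 against 13522, with -2.33 beside -0.86. Dlk1 was at 1246, 1404 and 1204 against 5111, with -1.97 beside -0.97. All 3 ovaries lay below the newborn for each. Impact was the higher one at 1.47 ± 0.36, but its 2 tested probe sets were at 0.10 and 1.47 and their mean of 0.79 was not called. Meg3 and Peg3 were not called, and the 10 tested probe sets of Meg3 ranged from -2.49 to 0.68.

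**Figure D5:**
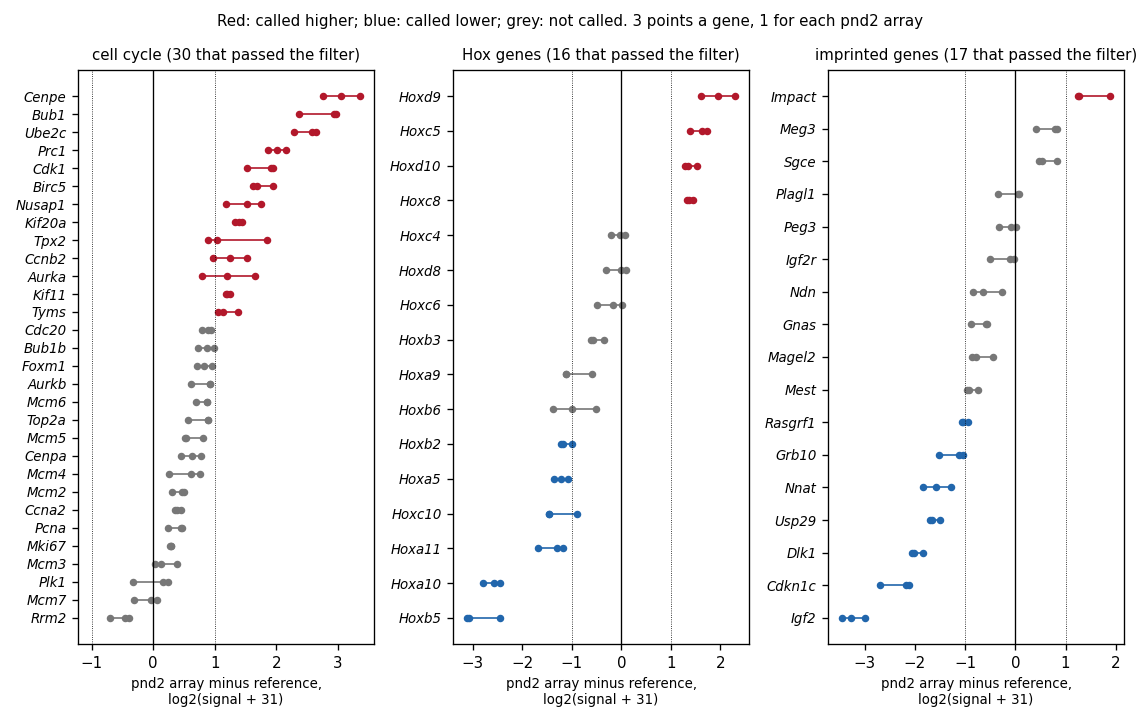
The 3 pnd2 arrays minus the reference on the log2(signal + 31) scale, 3 points a gene joined by a line, for the cell cycle, Hox and imprinted genes that passed the filter; dotted lines mark 2-fold. Cenpe, Bub1 and Ube2c lead the cell cycle genes, Hox genes reach from Hoxd9 to Hoxb5, and Igf2, Cdkn1c and Dlk1 are lowest of the imprinted genes.

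Sex-linked genes were set beside the sex of the samples, female in the ovaries and mixed in the reference. For the X-linked genes, sex and tissue cannot be told apart. The Y-linked Eif2s3y, a translation factor subunit, gave 10.4, 12.4 and 0.39 in the 3 ovaries and 803 in the reference, 4 of whose 8 animals were male. Kdm5d and Uty were also low in the ovaries, at 2.79, 1.26 and 2.18 and 5.59, 14.5 and 2.29, against 132 and 125. These were the 3 of 9 listed Y-linked genes that passed (6 had a probe set), all 3 through the reference alone, and all 3 were lower. Xist, the RNA that silences an X chromosome in females, read 11306, 12886 and 13818 against 7065, above the reference in all 3 ovaries but short of 2-fold (0.83 ± 0.15). That was its brightest probe set, and its 3 tested probe sets ranged from 0.83 to 3.42. Over 446 X-linked genes, 128 (28.7%) were higher and 74 (16.6%) lower, with a median of 0.35, beside 18% and 22.2% of 12743 autosomal genes with a median of 0.05. Of the 6 X-linked partners of Y-linked genes, Usp9x (1.82, over probe sets 0.60 to 1.91) and, at the 2-fold line itself, Kdm6a were higher, and the latter lost its call under quantile normalization (0.90), with a pseudocount of 100 (0.94) and without the third ovary (0.93).

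Genes of organs other than the ovary were low in the excised tissue. Hepatocyte genes were lower in all 23 of 25 listed that had a probe set, and these all passed, with a median of -7.06. Their summed signal was 840 to 1220 on the pnd2 arrays and 299933 on the reference. Because 22 of them passed through the reference alone, they could lie only below it. Alb read 72.9, 119.6 and 40.8 against 36942 (-8.47 ± 0.53), the second ovary being just above the limit. Afp read 0.95, 0.52 and 14.4 against 30710.5, at least 259-fold lower. Its gd18 difference was -6.64, but its gd18 arrays were far apart, from 71.3 to 2053. Its 4 tested probe sets ranged from -9.75 to -2.24 at pnd2. Fabp1, which binds fatty acids in liver and gut, had the largest negative difference of any gene, at 0.72, 2.63 and 14.0 against 41216, at least 348-fold lower.

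Skeletal muscle genes were lower in 24 of 24 and heart muscle genes in 15 of 15 that passed, with medians of -6.05 and -4.73. The lists held 24 and 16 genes, all with a probe set, and 20 and 13 members passed through the reference alone. Acta1 read 34.3, 69.7 and 49.1 against 37726, at least 318-fold lower, and Tnnc2, a fast troponin, 3.61, 9.29 and 5.19 against 23893. In heart, Myh6 read 58.5, 109 and 52.7 against 2669, all 3 ovaries being under the limit. Actc1 read 34.7, 230.4 and 9.92 against 24073, with only the second ovary above the limit. Ttn and Neb, the giant proteins of the sarcomere, kept signals of 1453, 1155 and 2220.1 and of 1018, 759.6 and 1371 in the ovaries, against 21079 and 3382. Their differences were -3.74 and -1.70 at pnd2 beside -5.94 and -3.33 at gd18, while Acta1 was -8.87 beside -8.96.

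Epidermis and hair genes were lower in 17 of 19 and higher in 1 (20 listed, 19 with a probe set; median -5.23), and 14 passed through the reference alone. Krt10, a keratin of the upper skin layers, had the largest negative difference among genes above the limit on all 4 arrays, at 417, 395 and 395 against 37798, 94.0-fold lower. Krt1, its partner, read 4.8, 8.93 and 15.5 against 14789, and the cornified envelope protein gene Lor 83.7, 59.0 and 39.1 against 28076. The 3 tested probe sets of Lor ranged from -8.29 to -1.68. Of all 44 tested genes whose symbols begin with Krt and a number, 38 were lower and 0 higher, and of 24 Krtap genes of the hair shaft 22 were lower. The exception was Trp63, which codes for the p63 protein of basal skin cells and also of oocytes. It read 6008, 4946 and 5447 against 2522 on 1 probe set (1.10 ± 0.14), while its other tested probe set was at -1.32 and the mean of both at -0.11.

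Neuronal genes were lower in all 21 that passed (23 listed, 22 with a probe set; median -3.67) and glial genes in 7 of 9 (15 and 13; -2.06), of which 18 and 4 passed through the reference alone. Stmn2, a microtubule protein of growing axons, read 28.6, 69.0 and 17.0 against 5596 (-6.42), with its other tested probe set at -2.88. Tubb3 read 29.4, 38.7 and 27.4 against 969, and Snap25, of synaptic release, 6.49, 1.89 and 10.1 against 863. Nefl and Nefm, neurofilaments, differed among the ovaries, at 134, 61.9 and 14.8 and 161, 63.4 and 16.6, with the first highest for both. Eye genes were lower in 9 of 10 (16 and 14; -3.22), with 9 passing through the reference alone, and among them the lens crystallin Cryba1 at 7.17, 5.65 and 3.86 against 4192.

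Bfsp1, a filament protein known from the lens, was the eye gene called higher. It gave 2669, 2113 and 2279 against 137, a ratio of 17.1, and was 3.82 at pnd2 beside -0.04 at gd18. The 3 ovaries were close to each other and all lay far above the newborn.

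The inner organs were low as well. Pancreas genes were lower in 12 of 12 (16 listed, 14 with a probe set; median -5.08), lung epithelium genes in 11 of 11 (13 and 12; -3.97), gut epithelium genes in 17 of 18 (21 and 20; -3.58) and kidney epithelium genes in 10 of 12 (16 and 14; -1.58). In the same order, 10, 11, 14 and 7 of these passed through the reference alone. Sftpc, of lung surfactant, read 33.6, 101 and 58.3 against 27331, at least 231-fold lower. Ins2, for insulin, read 97.7, 125 and 56.9 against 1138. Slc27a2, a fatty acid transporter of kidney and liver, was the member of the kidney list with the highest ovarian signal, at 1068, 1037 and 1301 against 8169, and was -2.82 beside -4.48 at gd18. Cartilage and bone genes were lower in 16 of 19 (22 and 19; -3.12), 15 of them passing through the reference alone, with Col2a1, the collagen of cartilage, at 5.54, 16.1 and 15.3 against 2783.

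Tissue that lies next to the ovary was checked in the same way, beside the 18.4% of all genes that were higher and the 22.1% that were lower. Fat genes were lower in 10 of 10 (13 and 11; -6.15), 8 of them passing through the reference alone, with Adipoq at 1.73, 7.55 and 10.1 against 4636. Genes of the ducts and oviduct were lower in 4 and higher in 1 of 8 (13 and 11; -0.93), where 2 passed through the ovary alone and 4 through the reference alone. The higher one was Emx2, which the gonad also uses, and Pax8 and Ovgp1 were not called. Adrenal genes were lower in 3 and higher in 1 of 6 (11 and 10; -1.34; 1 through the ovary alone and 2 through the reference alone), and the defining Cyp11b1 and Cyp21a1 were under the limit on both sides.

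The adrenal gene called higher was Th, tyrosine hydroxylase, the first enzyme of catecholamine synthesis. It read 1445, 1029 and 739.7 against 115, at least 9.04-fold higher, with 2.87 ± 0.47 at pnd2 beside 1.23 at gd18. The 3 ovaries differed among themselves but all stood well above the newborn. Chga and Chgb, which mark the same chromaffin cells, were lower at 172, 136 and 63.9 against 447 and 49.3, 41.3 and 50.5 against 838, and Dbh, the later enzyme, did not pass the filter.

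Cell types that most organs hold were lower in part. Macrophage genes were lower in 14 of 15 (16 listed, all with a probe set; median -2.27), neutrophil genes in 13 of 13 (14 and 13; -4.48), erythroid genes in 11 of 12 (19 and 15; -2.93) and lymphocyte genes in 2 of 3 (16 and 14). In this order 5, 13, 10 and 3 passed through the reference alone. Csf1r, the receptor of macrophages, kept a signal of 1256, 1505 and 1113 against 9391, while S100a8, of neutrophils, was at 62.7, 233 and 42.6 against 5749. Alas2, of haem synthesis in red cells, was at 135, 145 and 54.8 against 8356, a difference of -5.95. At gd18 the difference of Alas2 was -2.98, but its gd18 arrays were far apart, from 394 to 2965. The probe set of the adult globin Hba-a1 was under the limit on all 4 arrays and says nothing here.

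Endothelium genes were lower in 8 of 17 (18 and 18; -0.99), smooth muscle and pericyte genes in 9 of 12 (13 and 13; -2.07) and connective matrix genes in 12 of 21 (23 and 22; -1.44), and 0 of these were higher, with 2, 6 and 2 passing through the reference alone. Cldn5, a junction protein of vessels, read 647, 836 and 486 against 3725, while Kdr, a receptor of VEGF, was not called at 1271, 1892 and 961 against 2146. Col3a1 read 22387, 27333 and 21809 against 32809.6 and Dcn 13618, 16590.5 and 12919 against 13247, neither of which was called. Postn and Tnmd, of bone sheath and tendon, were at -3.03 and -5.86. Sertoli and Leydig cell genes were higher in 1 and lower in 2 of 7 (15 and 12; -0.09, or 0.04 after median scaling; 2 through the reference alone), with Sox9 lower at 47.8, 75.3 and 33.0 against 379 (its other probe set at -0.70) and Aard higher at 2235, 1960.3 and 2044 against 186. Of 15 genes of pituitary, hypothalamus and thyroid, 11 had a probe set, 3 passed, 1 of them through the reference alone, and 1 was lower. For all lists of this paragraph, the shares over all genes were 18.4% higher and 22.1% lower.

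Outside the lists, the largest differences among genes above the limit on all 4 arrays included genes with no place in them. Bzw2 read 34331, 37669 and 41747 against 530.5, a ratio of 71.5, but its 3 tested probe sets ranged from -0.45 to 6.07. Kctd14 read 16260.1, 21448 and 21607 against 539.9, and all 4 of its probe sets were at least 2.55 above. Unc13c, a relative of synaptic priming factors, read 9339.8, 7129.7 and 7942 against 201, with 5.13 beside 1.92 at gd18. Kdm1b, a histone demethylase needed for imprints in oocytes, read 8121, 6181 and 8147 against 338. Sytl4 and the X-linked Ofd1, of cilia, stood at 4.31 and 4.30.

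Against a reference below the limit, Akr1cl, an aldo-keto reductase relative, read 9388, 8980.3 and 9467 against 75.9, and Dppa5a, an RNA-binding protein of pluripotent cells and germ cells, 8778, 7754 and 5443 against 67.7. They were at least 78.3-fold and 61.8-fold higher. The difference of Akr1cl was 6.44, with its other tested probe set at 3.82. Among lower genes above the limit on all arrays, Eno3, the muscle enolase, read 189, 310.2 and 233 against 18474, Ehhadh, a peroxisomal enzyme of liver, 156, 235 and 152 against 12828, and Fbp1, of glucose synthesis, 518, 532 and 399 against 16693. Ctsk, the protease with which osteoclasts resorb bone, read 243, 120.1 and 389 against 8118. Tpm1 and Pdlim5 were lower on the probe sets that stand for them, at -5.07 and -4.92, and their other probe sets reached up to 0.35 and -0.73.

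By symbol, families of at least 20 tested genes also parted, beside 18.4% higher and 22.1% lower over all genes. Of 276 Zfp zinc finger genes 120 were higher and 7 lower (median 0.87), of 29 Med genes, for subunits of Mediator, 15 and 0 (1.07), of 34 Cep centrosome genes 17 and 1 (0.99), and of 22 Taf genes 9 and 0 (0.92). Cytochrome P450 genes were lower in 35 of 46 and higher in 3 (-1.95), and solute carriers lower in 116 of 274 and higher in 21 (-0.71). Ribosomal protein genes lay near the reference, with medians of 0.02 for 24 Rpl and -0.02 for 27 Rps genes. These families were chosen after their values were seen and carry no test.

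Most differences from the newborn were shared by younger ovaries. Of the 2431 higher genes, 1802 were also called higher at gd18, 617 were not called and 12 were called lower. Of the 2920 lower genes, 2577 were also called lower and 343 were not called. At gd18, 17.3% of all genes were higher and 22.6% lower. The reference lay below all 18 ovary arrays of 6 stages in 1730 (71.2%) of the higher genes. It lay above all of them in 2463 (84.3%) of the lower genes. Over all genes the shares were 25.3% below and 26.2% above. The 18 arrays include the pnd2 arrays that made the calls, on which a called gene already lay on its side. The gap between called genes and all genes is therefore partly fixed in advance and is no measure of sharing by itself. By stage mean, 47.8% of the higher genes were already past 2-fold at gd11, 64.8% at gd14 and 74.2% at gd18, and of the lower genes 78.2%, 87.3% and 88.5%. Of the 223 genes at least 8-fold higher, 39% were past 2-fold at gd11 and 90.6% at gd18. Of the 787 at least 8-fold lower, 97.2% and 100% were. The stages share the reference array, and these counts therefore share its errors.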

How the data were processed

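RNA of 18 ovary samples and 1 whole-animal reference was measured on single-colour Affymetrix arrays, and this comparison used 3 pnd2 ovary arrays and the reference array. The deposited values are array intensity on a linear scale, which the authors made with GCOS, per the submitters' processing notes; its version and settings were not stated in any source used. Every deposited column had a trimmed mean of 500, leaving out 2% at each end. The table covers 45101 probe sets, of which 64 controls were left out; 34958 had 1 gene in the platform annotation, 932 several and 9160 none, and symbols were updated through RefSeq. A gene was represented by its brightest tested probe set, averaged over ovary and reference. The number of arrays limits the precision, and the separate animals rest on the text of the series. The extraction protocol in the labels names testes, which does not match the labelled tissue.

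The pseudocount of 31 is the 25th percentile of the ovary arrays. The 42 gene lists name 750 genes, of which 673 had a probe set and 553 passed the filter. The members and lists were chosen with earlier results of these data known. Genes were named by rule: the 10 largest called differences in each direction with all 4 arrays above the filter, the 10 largest bounds in each, up to 4 members of each list in its more frequent direction and 2 in the other, a fixed panel of marker genes, and 10 genes called opposite ways at gd18. Clone and predicted names were left out. Other members and the symbol families were named after their values were seen. No test was run because the reference has 1 array. Alternatives varied the pseudocount, scaling, filter, choice of probe set and threshold, and left out each pnd2 array. Python 3.11.15, numpy 2.4.6, pandas 2.3.3, scipy 1.17.1 and matplotlib 3.10.9 were used, and the scripts were tested on simulated data.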

Additional observations from a re-analysis of the deposited data

Results flagged for a closer look

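In 12 genes all 3 pnd2 arrays lay above the reference and all 3 gd18 arrays below it, each past 2-fold by the mean, and the 10 in which the smaller of both differences is largest are given. Astl, known as the egg protease that cuts the zona, was 2.67 at pnd2 and -1.19 at gd18. Fam47e was 2.52 and -1.05, Pkib 1.94 and -1.39, and Ptges, a prostaglandin E synthase, 1.88 and -1.23. Accsl was 1.69 and -1.05, Fam241b 1.64 and -1.66, and Erc2 1.41 and -1.07. Atp2c2 was 1.20 and -1.27, Slco4a1 1.17 and -1.17, and Trp63 1.10 and -1.18. With a pseudocount of 100 the pnd2 calls of Atp2c2 (0.96) and Slco4a1 (0.82) were lost, and those of Atp2c2 and Trp63 were lost when the nearest array had to be 2-fold away. The mean of the probe sets of Trp63 was -0.11. Both ages share the reference array, and the difference between them was not tested. No gene was called lower at pnd2 and higher at gd18.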

How the results depend on the processing

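No paired analysis was possible because the reference has 1 array and the replicate numbers are not shared between groups. The counts of 2431 higher and 2920 lower genes became 656 and 1553 at a 4-fold threshold, and 1737 and 1690 with the filter at the 75th percentile. Leaving out each pnd2 array gave 2410 to 2496 higher and 2870 to 3031 lower genes. Median scaling moved the median of all genes from 0.06 to 0.19 and gave 2795 higher and 2691 lower. A pseudocount of 8 gave 2596 and 3093, and one of 100 gave 1962 and 2455. Of 202 named calls, 33 were lost at 4-fold, 9 with a pseudocount of 100 and 6 with the mean of all probe sets. Trp63 reversed to -0.11 with that mean. Wnt7a, at -1.60, ranged from -1.56 to 0.94 when an ovary was left out, reversing without the second, where another of its probe sets stood for it. The median of the TGF-beta list changed sign under median scaling (0.01) and when any ovary was left out (0.02 to 0.17). That of the Sertoli and Leydig list changed sign under median scaling (0.04), with the filter at the 75th percentile (0.74) and without the first ovary (0.14). Under that stricter filter the Wnt list came to 0.59 and the duct list to 1.41. Signals near background and the single reference array limit every value.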

Other observations

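Probe sets without a gene in the annotation were compared in the same way. Of 9160, 3165 passed the filter, and 484 (15.3%) were higher and 439 (13.9%) lower. Over all genes these shares were 18.4% and 22.1%. The one with the largest positive difference read 8187, 6433 and 2959 in the ovaries and 9.11 in the reference.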
